A study of Mus musculus with 28 samples.

Results

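The genes described here are the forkhead factor gene Foxp3 and the genes of the Ikaros family of zinc finger transcription factors, Ikzf1 (Ikaros), Ikzf2 (Helios), Ikzf3 (Aiolos), Ikzf4 (Eos) and Ikzf5 (Pegasus). They were chosen by name, as 6 of the 24089 genes in a table of RNA levels from mouse CD4+ T cells, and each was found there. The choice was made with earlier results of these data known. The study asked how TGF-β and IL-4 together change T cells toward the IL-9-producing Th9 state, and what is lost without the TGF-β receptor. Naive CD4+ CD62L+ cells were taken with magnetic beads from the spleen and lymph nodes of young adult C57BL/6-background mice of both sexes that carried Tgfbr1 f/f and Ert2-cre, a Cre recombinase that tamoxifen activates. Mice given oil gave the wild-type (WT) cells and mice given tamoxifen gave the Tgfbr1 knockout (KO) cells, so that loss of the receptor and exposure to tamoxifen cannot be told apart. The library names state oil or tamoxifen only for the open-chromatin libraries described at the end, and WT or KO alone for the RNA libraries. The RNA cells are taken here to have the same source, although the study also bred Tgfbr1 f/f Cd4-cre mice. Cells of both genotypes were stimulated with plate-bound anti-CD3 and soluble anti-CD28 in medium alone (control), with either TGF-β or IL-4, or with both cytokines at once, for a time that the labels do not give, which made 8 groups of 3 libraries each, 24 in all, prepared by an unstranded full-length method (Smart-seq2).

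Foxp3 is the factor that defines regulatory T (Treg) cells, and TGF-β signaling through the receptor subunit encoded by Tgfbr1 and through Smad proteins induces it in stimulated CD4+ T cells. Ikaros family proteins bind DNA as dimers with each other and recruit corepressor complexes such as NuRD, and Eos and Helios are known as partners or companions of Foxp3 in Treg cells. IL-4 signals through Stat6 to raise Gata3 and is known to oppose the induction of Foxp3 by TGF-β.

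The table's column headings conflict with read counts that the authors published for 8 of its 24 libraries, all of them WT. Each of the 8 count columns matched the level column that stands at its place in library-number order, and only 2 of the 8 stood under their own heading, while 6 stood under the heading of another library. The columns were therefore read by position, with WT libraries 1 to 12 followed by KO libraries 13 to 24 and each block of 4 holding the control, then TGF-β, then IL-4, then both cytokines. The other 16 columns, 4 WT and all 12 KO, rest on position alone, and for 16 of the 24 columns the group differs between the readings. Under the position reading the Pearson correlation of log2(RPKM + 1) between replicates of a group ran from 0.994 to 0.997 in WT (median 0.996, 12 pairs) and from 0.989 to 0.996 in KO (median 0.995), against 0.977 to 0.995 in WT (median 0.985) and 0.988 to 0.996 in KO (median 0.991) as headed. RPKM is reads per kilobase of transcript and per unit of library size.

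The reading decides which changes of the members were called, within a genotype and between genotypes under a treatment. As headed, Foxp3 in WT control libraries 1 to 3 stood at 5.76, 61.9 and 1.85 RPKM, in WT with TGF-β at 31.4, 6.12 and 73.4, in WT IL-4 at 2.0, 34.8 and 5.23, and in WT with both at 57.6, 1.92 and 34.8. Each of those groups mixes high and low libraries and all of them overlap. Fitted that way with limma, none of the 9726 genes tested passed in any of the 12 comparisons of treatments or their interactions, although 85 to 1096 genes had an unadjusted p under 0.05, and no member was called in KO against WT under any treatment. The split into 12 WT and 12 KO libraries is the same under both readings, and the comparison over that split given below does not depend on which one is right.

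These sequences are shown because the open chromatin described at the end turns on them: the stretch before the start of Foxp3, where no DNase I hypersensitive site (DHS, a stretch of open chromatin) was listed; the DHSs nearest to Foxp3; and the strongest DHS inside Ikzf4 beside one inside Ikzf3. All are from the mouse mm9 (NCBIM37) genome, read 5′ to 3′ on the gene's strand, and each DHS window holds 201 bases around the summit listed in WT cells with both cytokines. Capitals mark matches, on either strand, to GATAA (GATA factors), TGGAAA (NFAT), CAGACA (Smad) and TGTGGT (Runx). TGGGAA (the Ikaros core), TTCNNNGAA (STAT), GTAAACA (forkhead) and TGANTCA (AP-1) were searched as well and are not in these windows. Some of the letters were added to the search after the windows had been seen. The stretch before Foxp3 lies at chrX:7156552-7156801 (+), the nearer DHS at chrX:7151467-7151667 (+), the farther DHS at chrX:7147938-7148138 (+), the Ikzf3 window at chr11:98358743-98358943 (-) and the Ikzf4 window at chr10:128074251-128074451 (-).
Foxp3, 250 bases before the start: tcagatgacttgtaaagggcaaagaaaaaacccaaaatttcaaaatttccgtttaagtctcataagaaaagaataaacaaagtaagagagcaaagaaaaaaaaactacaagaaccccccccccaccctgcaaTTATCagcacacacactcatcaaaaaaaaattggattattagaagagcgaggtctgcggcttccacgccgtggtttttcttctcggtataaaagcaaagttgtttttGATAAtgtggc
Foxp3, nearer DHS: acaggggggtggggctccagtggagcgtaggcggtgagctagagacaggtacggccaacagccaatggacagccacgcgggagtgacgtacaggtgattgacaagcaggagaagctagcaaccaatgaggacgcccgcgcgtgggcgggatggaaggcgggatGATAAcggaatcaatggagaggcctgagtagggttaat
Foxp3, farther DHS: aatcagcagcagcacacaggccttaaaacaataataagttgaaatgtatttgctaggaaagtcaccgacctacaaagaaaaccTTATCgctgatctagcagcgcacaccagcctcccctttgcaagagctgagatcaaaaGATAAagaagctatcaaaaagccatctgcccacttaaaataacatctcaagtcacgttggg
Ikzf3, intronic DHS: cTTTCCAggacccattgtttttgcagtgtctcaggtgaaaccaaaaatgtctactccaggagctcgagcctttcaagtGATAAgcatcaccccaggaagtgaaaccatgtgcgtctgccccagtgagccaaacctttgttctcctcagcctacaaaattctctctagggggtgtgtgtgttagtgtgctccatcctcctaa
Ikzf4, intronic DHS: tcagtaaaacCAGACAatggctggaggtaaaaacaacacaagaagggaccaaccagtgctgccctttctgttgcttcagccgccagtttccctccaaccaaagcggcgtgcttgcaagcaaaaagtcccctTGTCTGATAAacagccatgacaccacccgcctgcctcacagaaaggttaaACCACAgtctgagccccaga
GATAA has 2 matches in the stretch before Foxp3, 1 in the nearer DHS, 2 in the farther DHS, 1 in the Ikzf3 window and 1 in the Ikzf4 window, where it overlaps a CAGACA match. The Ikzf4 window also has 2 matches to CAGACA and 1 to TGTGGT, and the Ikzf3 window has 1 to TGGAAA. Such short words are frequent: of the 33880 DHS windows of the same length in that list, 14.3% held GATAA, 14.4% TGGAAA, 18.5% CAGACA, 19.8% TGTGGT, 14.7% TGGGAA, 7.0% TTCNNNGAA, 2.47% GTAAACA and 10.7% TGANTCA. Of 32851 RefSeq promoter sequences (250 bases before the start), 22.6% held GATAA.

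Before the genes themselves, the label of the KO was checked on Tgfbr1, the deleted gene. Tgfbr1 stood at 3.02, 3.25 and 3.31 RPKM in WT control, 13.9, 14 and 14.5 in WT with TGF-β, 3.69, 3.48 and 3.94 in WT IL-4 and 17.6, 19.5 and 20.7 in WT with both. In KO it stood at 2.32, 2.55 and 3.05 in control, 2.37, 2.42 and 3.24 with TGF-β, 2.92, 3.75 and 3.17 with IL-4 and 3.45, 5.18 and 3.35 with both cytokines. KO control and WT control overlapped, and reads from exons outside the deleted stretch count toward the same gene, so the gene's level checks the deletion only weakly. The response to TGF-β was a clearer mark: the feedback regulator Skil averaged 5.36 RPKM in WT controls and 10.5 in WT with TGF-β, but 1.73 and 1.84 in KO. Gata3, the IL-4 target, averaged 21.2 in WT control and 71.8 in WT IL-4, and 8.91 and 67.1 in KO. Of 7 tested genes chosen to check the labels, 5 were called in WT TGF-β against control by the limma test used for all comparisons here (71.4% beside 5.40% of all genes tested) and 0 in KO TGF-β (limma, 1 at an unadjusted p under 0.05; beside 0.0617%). With both cytokines 7 of the 7 were called higher in WT (beside 8.46%) and 4 in KO (57.1% beside 2.86%). Those 4 were Il9, Gata3, Il4ra and Socs1. Il9 was thus higher in KO cells as well, where the paper reports a complete failure of its transcription. It was also called lower in KO than in WT with both. This list and those below were chosen with earlier results of these data known, so their shares are descriptions. All 8 genes of a CD4 T cell marker list were present, with a summed level of 1303 to 1746 RPKM in every library and Lck as its most abundant gene (mean 345). That sum marks T cells and does not by itself separate CD4 cells from other T cells. Within the list Cd4 held 75.6 to 122 RPKM and Zbtb7b 3.81 to 8.53, beside 1.14 to 8.87 for Cd8a and 11.0 to 30.4 for Cd8b1. Cd4 is named after its values were seen.

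The 6 genes spanned a wide range of levels. Over all 24 libraries Ikzf1 averaged 49.6 RPKM (rank 2017 of 24089 genes), Foxp3 14.2 (rank 4455), Ikzf3 12.1 (rank 4816), Ikzf4 4.57 (rank 6979), Ikzf5 4.18 (rank 7149) and Ikzf2 0.344 (rank 11083). Ikzf2 fell below the filter for testing, a mean of at least 1 RPKM, so 5 of the 6 genes were tested. Ikzf1 was thus the main Ikaros transcript of these cells in every group. In bulk samples such as these, fewer cells of a type and less RNA per cell cannot be told apart. Foxp3 rests on 34 to 6017 reads per library, Ikzf4 on 94 to 1236, Ikzf3 on 534 to 2731, Ikzf5 on 332 to 731 and Ikzf2 on 24 to 193.

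Foxp3 was scarce in control cells, high with TGF-β and intermediate with both cytokines, and it was low in every KO group. In WT the control libraries held 5.76, 6.12 and 5.23 RPKM (mean 5.70, SD 0.447), the TGF-β libraries 61.9, 73.4 and 57.6 (64.3, SD 8.15), the IL-4 libraries 1.85, 2.0 and 1.92 (1.92, SD 0.0725) and the libraries with both 31.4, 34.8 and 34.8 (33.7, SD 1.99). None of the 4 WT groups overlapped another. In KO the control libraries held 1.46, 1.36 and 1.48 RPKM (1.43, SD 0.0643), the TGF-β libraries 4.76, 3.95 and 3.92 (4.21, SD 0.474), the IL-4 libraries 0.680, 0.612 and 0.542 (0.611, SD 0.0690) and the libraries with both 1.27, 1.89 and 1.81 (1.66, SD 0.333). From the highest mean to the lowest the order was WT TGF-β, WT with both, WT control, KO TGF-β, WT IL-4, KO with both, KO control and KO IL-4, and among neighbours only WT IL-4 and KO with both, and KO with both and KO control, overlapped. The reads are unstranded, and Ppp1r3f and Ccdc22 lie over Foxp3 on the opposite strand, so reads from the shared stretch cannot be assigned to a strand. Ppp1r3f averaged 0.254, 0.741, 0.185 and 0.495 RPKM in WT control, with TGF-β, with IL-4 and with both, a far lower level than that of Foxp3. Ccdc22 averaged 32.2, 38.0, 29.1 and 37.3 in the same WT groups, in the order of Foxp3. In the KO groups Ccdc22 averaged 31.3 to 33.7. The part of shared reads in the level of Foxp3 was not tested.

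**Figure D1:**
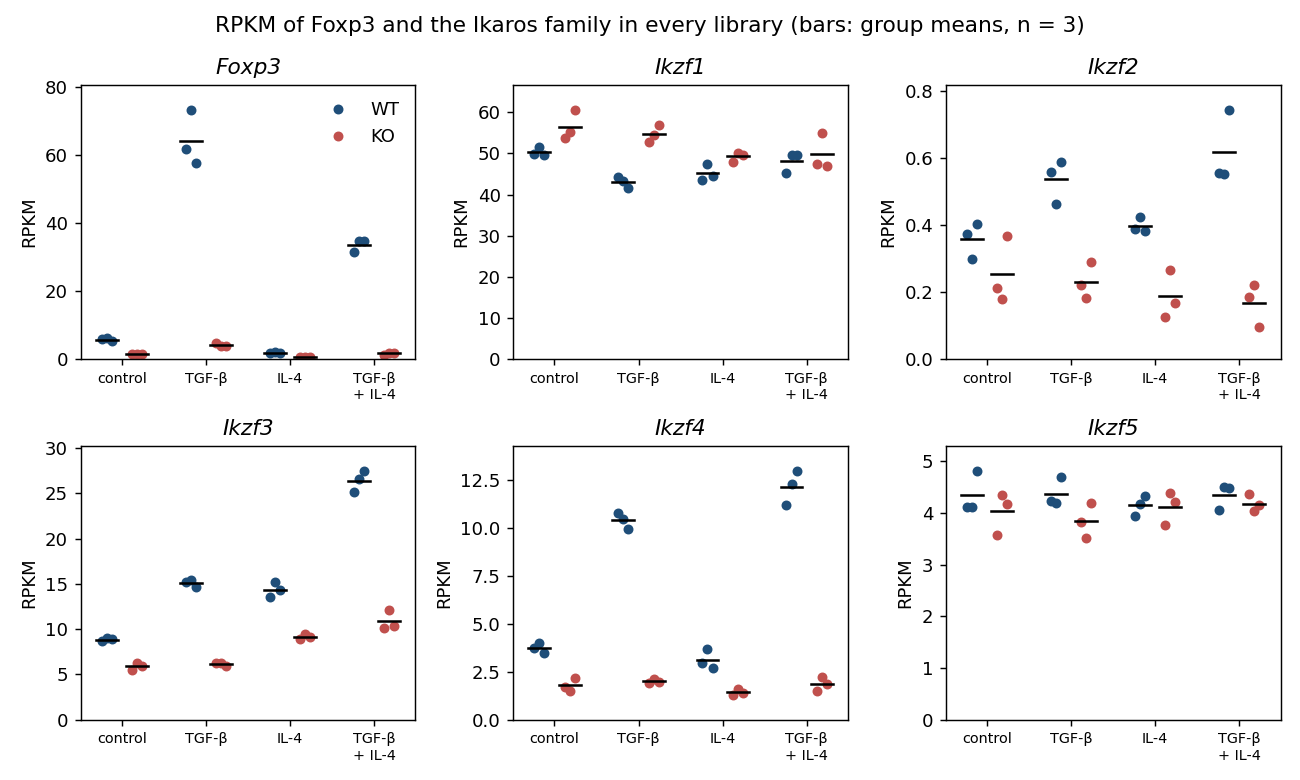
RNA level (RPKM) of each of the 6 genes in each of the 24 libraries, by treatment, for WT and KO, with each point a library and each bar a group mean. Foxp3 peaked in WT TGF-β (57.6 to 73.4), Ikzf3 in WT with both (25.1 to 27.5), and the KO libraries of Ikzf4 (1.31 to 2.25) lay below all of its WT libraries (2.71 to 13).

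Ikzf4 encodes Eos, a repressor known to work with Foxp3. It was high in WT cells given TGF-β, with or without IL-4, and low in all KO cells. In WT it stood at 3.77, 4.0 and 3.46 RPKM in control (mean 3.74, SD 0.273), 10.8, 10.5 and 9.94 with TGF-β (10.4, SD 0.426), 2.98, 3.68 and 2.71 with IL-4 (3.12, SD 0.498) and 11.2, 12.3 and 13 with both (12.1, SD 0.910). In KO it stood at 1.69, 1.52 and 2.19 in control, 1.93, 2.14 and 1.97 with TGF-β, 1.31, 1.59 and 1.38 with IL-4 and 1.49, 2.25 and 1.88 with both. The order was WT with both, WT TGF-β, WT control, WT IL-4, KO TGF-β, KO with both, KO control and KO IL-4; WT control overlapped WT IL-4, and each KO group overlapped the next.

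Ikzf3 encodes Aiolos, a family member studied in B cells and in helper T cell subsets. It was higher with either cytokine than in control in WT, and highest with both. In WT it stood at 8.69, 9.01 and 8.86 RPKM in control (mean 8.85, SD 0.158), 15.2, 15.4 and 14.6 with TGF-β (15.1, SD 0.424), 13.5, 15.2 and 14.3 with IL-4 (14.3, SD 0.855) and 25.1, 26.6 and 27.5 with both (26.4, SD 1.25). In KO it stood at 5.49, 6.27 and 5.99 in control, 6.27, 6.25 and 5.98 with TGF-β, 8.89, 9.51 and 9.09 with IL-4 and 10.1, 12.1 and 10.4 with both. WT with both lay above every other group, WT TGF-β and WT IL-4 overlapped each other, and the next were KO with both, KO IL-4 and WT control (these last 2 overlapped), then KO TGF-β and KO control, which overlapped as well.

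Ikzf1, which encodes the founding family member, and Ikzf5, which encodes the most divergent, had the narrowest ranges for their level. Ikzf1 held 41.5 to 51.5 RPKM (median 46.4) in the 12 WT libraries and 46.9 to 60.6 (median 53.3) in the 12 KO libraries. Its highest group means were KO control (56.5) and KO TGF-β (54.8), which overlapped each other and lay above WT control (50.3), and its lowest was WT TGF-β (43.1). Ikzf5 ran from 3.94 to 4.82 in WT and from 3.52 to 4.38 in KO, and all 7 pairs of neighbouring groups overlapped. Ikzf2, which encodes Helios, a marker of many Treg cells, was near the floor, at 0.300 to 0.745 RPKM in WT and 0.0960 to 0.369 in KO. Its highest means were WT with both (0.618) and WT TGF-β (0.538), which overlapped each other and lay above the other 6 groups.

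Adding up the RPKM of the 5 Ikaros genes shows how their mix changed. The summed level averaged 67.6 in WT control, 73.4 in WT with TGF-β, 67.2 in WT IL-4 and 91.7 in WT with both (SD 1.18, 1.93, 3.44 and 4.91). In KO the sums were 68.5, 67.0, 64.2 and 66.8 in the same order (SD 4.42, 2.23, 1.98 and 5.79). Ikzf1 made up 74.4% of the sum in WT control and 52.6% in WT with both, where Ikzf3 made up 28.8% and Ikzf4 13.2%, against 13.1% and 5.53% in WT control. The shares of Ikzf1, Ikzf3 and Ikzf4 were 82.5%, 8.65% and 2.62% in KO control and 74.4%, 16.2% and 2.79% in KO with both.

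**Figure D2:**
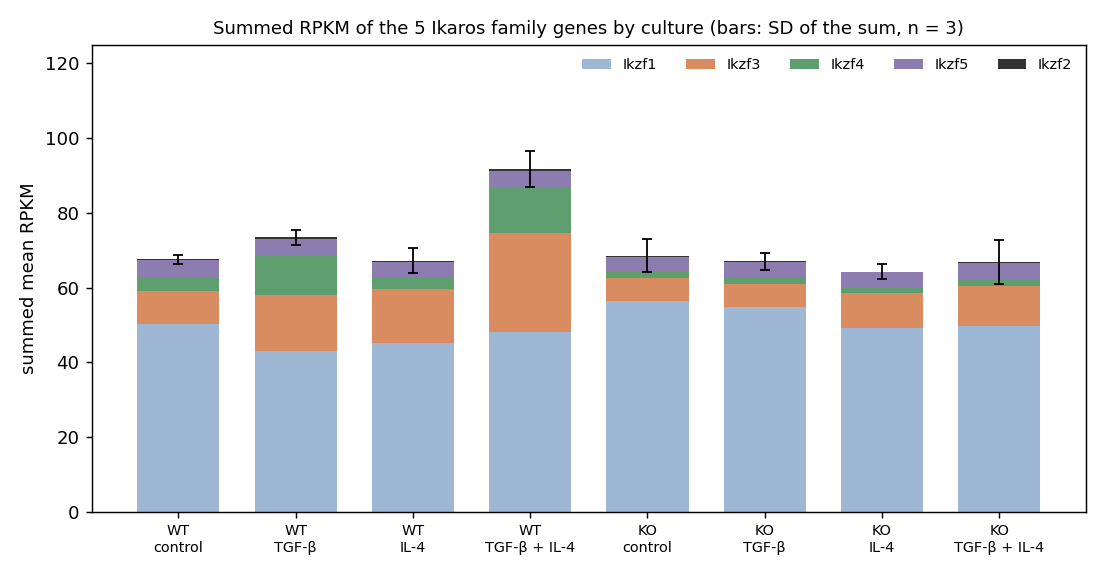
Summed group mean RPKM of the 5 Ikaros family genes in each of the 8 groups, stacked by gene, with error bars giving the SD of the sum over 3 libraries. The sum was highest in WT with both (91.7), where Ikzf3 and Ikzf4 took 28.8% and 13.2% of it.

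TGF-β alone in WT cells raised Foxp3, Ikzf3 and Ikzf4. Foxp3 was among the genes that rose the most, and the Ikaros changes were smaller. Genes were called changed when limma's p, Benjamini-Hochberg adjusted over all genes tested, was under 0.01 and the fold at least 1.5, with folds taken on log2(RPKM + 1), which understates changes of genes near or below 1 RPKM. In WT TGF-β against control 3 of the 5 tested genes were called, all 3 higher, beside 5.40% of all genes tested (301 higher and 224 lower). Foxp3 rose by 3.28 on the log2 scale (95% interval 3.08 to 3.48), a fold of 9.71 and the fourth largest change of all, with adjusted p = 2.02e-16. Ikzf4 rose by 1.27 (adjusted p = 4.44e-09) and Ikzf3 by 0.70 (adjusted p = 2.45e-08). In each case all 3 TGF-β libraries lay above all 3 control libraries. Ikzf1 was lower by log2 -0.22 (adjusted p = 0.0102) in all 3, and was not called; as headed it was 0.03.

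IL-4 alone in WT cells lowered Foxp3 and raised Ikzf3. Foxp3 averaged 1.92 RPKM with IL-4 against 5.70 in control. In this comparison 2 of the 5 genes were called, 1 higher and 1 lower, beside 1.31% of all genes. Foxp3 fell by 1.20 on the log2 scale (95% interval -1.39 to -1.0), a fold of 2.29, with adjusted p = 2.04e-08, and all 3 IL-4 libraries lay below all 3 controls. Ikzf3 rose by 0.64 (fold 1.55, adjusted p = 5.55e-07), again in 3 of 3. Ikzf4 differed by log2 -0.21 (adjusted p = 0.329), with overlapping libraries.

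With both cytokines, the Th9 condition, the same 3 genes were above control, and Foxp3 stood between its levels in TGF-β and in control. Of the 5 genes 3 were called, all higher, beside 8.46% of all genes. Foxp3 rose by 2.37 (fold 5.18, adjusted p = 5.74e-14), Ikzf4 by 1.47 (fold 2.77, adjusted p = 4.76e-10) and Ikzf3 by 1.47 (fold 2.78, adjusted p = 2.21e-13), each in 3 of 3 libraries.

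IL-4 on top of TGF-β lowered Foxp3 and raised Ikzf3. Foxp3 averaged 33.7 RPKM with both cytokines against 64.3 with TGF-β alone. In WT cells with both against those with TGF-β 2 of the 5 genes were called, 1 higher and 1 lower, beside 2.29% of all genes (223, and 144 without replicate 3). Foxp3 fell by 0.91 (fold 1.88, adjusted p = 6.77e-07) and Ikzf3 rose by 0.77 (fold 1.70, adjusted p = 2.77e-08), each in 3 of 3 libraries, while Ikzf4 differed by log2 0.20 (95% interval -0.01 to 0.42, adjusted p = 0.175). TGF-β on top of IL-4 raised the same 3 genes as TGF-β alone: with both against IL-4 3 of the 5 genes were called, all higher, beside 8.54% of all genes. Foxp3 rose by 3.57 (fold 11.9, adjusted p = 1.32e-16), the second largest change of all, Ikzf4 by 1.68 (fold 3.20, adjusted p = 7.10e-11) and Ikzf3 by 0.84 (fold 1.79, adjusted p = 2.16e-09), each in 3 of 3. These comparisons share their libraries with the ones above.

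Whether the effects of the 2 cytokines add up on the log2 scale was tested as an interaction in WT. No member passed, and the intervals for Foxp3, Ikzf1 and Ikzf4 lay above 0. By limma it was called for 0 of the 5 genes (3 of the 5 at an unadjusted p under 0.05), beside 1.25% of all genes (122, but 35 without replicate 1 and 15 without replicate 3). The estimates were 0.29 for Foxp3 (95% interval 0.01 to 0.56, adjusted p = 0.210), 0.41 for Ikzf4 (0.11 to 0.71, adjusted p = 0.0938), 0.13 for Ikzf3 (adjusted p = 0.409) and 0.31 for Ikzf1 (0.14 to 0.48, adjusted p = 0.0302). An interaction of that size is not shown to be absent.

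**Figure D3:**
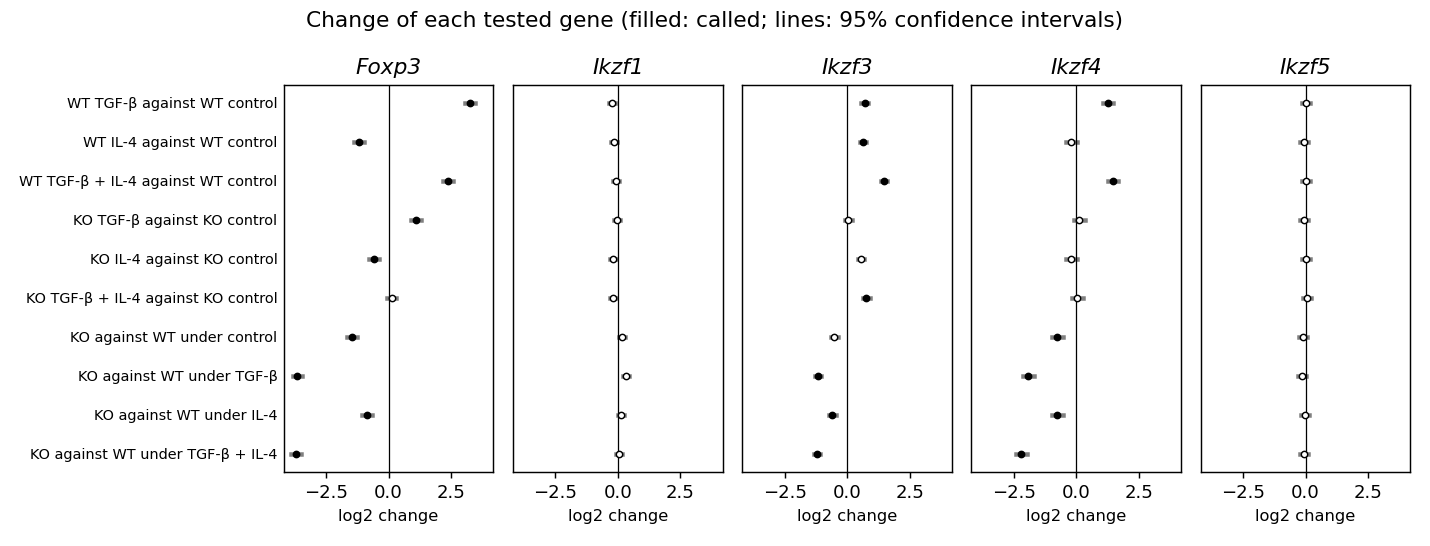
Log2 change with its 95% interval for the 5 tested genes in 10 comparisons, with filled points for changes that were called. Foxp3 ran from 3.28 in WT TGF-β against control to -3.71 in KO against WT under both cytokines, and Ikzf1 and Ikzf5 had no filled point.

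In KO cells few genes passed the test with TGF-β, and Foxp3 was among them. Only 6 of 9726 genes were called in KO TGF-β against control, which is 0.0617%, and Foxp3 was 1 of them, and no other of the 5 genes was. It rose by 1.09 on the log2 scale (95% interval 0.90 to 1.29, fold 2.13, adjusted p = 1.92e-06), and all 3 TGF-β libraries lay above all 3 controls. The count fell to 2 with any 1 replicate left out, and with only the KO control and TGF-β libraries in the fit limma called 0 genes (266 at an unadjusted p under 0.05) and gave Foxp3 the same change with adjusted p = 0.0101. Ikzf3 and Ikzf4 differed by log2 0.05 and 0.11 (adjusted p = 1.00 for both).

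IL-4 in KO cells lowered Foxp3 once more. Of the 5 genes 1 was called in KO IL-4 against control, lower, beside 2.65% of all genes. Foxp3 fell by 0.60 (fold 1.51, adjusted p = 0.000121) in 3 of 3 libraries, and without replicate 3 it was not called (log2 -0.55, adjusted p = 0.0196). Its means were 1.43 RPKM in KO control and 0.611 with IL-4, so with 1 added this fold understates the change. Ikzf3 was higher by log2 0.56 (fold 1.47, adjusted p = 1.84e-06) in 3 of 3, just short of the fold. In KO with both against control 1 of the 5 was called, higher, beside 2.86% of all genes: Ikzf3 rose by 0.77 (fold 1.71, adjusted p = 1.39e-08) in 3 of 3. Foxp3 differed there by log2 0.12 (adjusted p = 0.509) and Ikzf4 by 0.04 (adjusted p = 0.874).

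Foxp3, Ikzf3 and Ikzf4 were lower in KO than in WT cells under every treatment, with Ikzf3 in control short of the fold needed for a call. Of the 5 genes 2 were called in control, beside 2.64% of all genes, 3 with TGF-β beside 9.0%, 3 with IL-4 beside 2.91% and 3 with both cytokines beside 9.16%. Foxp3 differed by log2 -1.46 in control, -3.65 with TGF-β, -0.86 with IL-4 and -3.71 with both (folds of 2.75, 12.5, 1.81 and 13.1; adjusted p = 7.98e-10, 2.86e-17, 2.03e-06 and 1.98e-17). Ikzf4 differed by -0.77, -1.92, -0.76 and -2.20 in the same order (adjusted p = 1.81e-05, 2.98e-12, 3.07e-05 and 4.32e-13). Ikzf3 differed by -0.51 in control (fold 1.43, adjusted p = 7.56e-06, again with no overlap) and by -1.16, -0.59 and -1.21 in the others (adjusted p = 4.81e-12, 1.69e-06 and 3.14e-12). In each called case all 3 KO libraries lay below all 3 WT libraries. With the columns as headed the differences were negative too and none was called: Foxp3 had -1.89, -3.11, -1.95 and -2.72 (adjusted p = 0.366, 0.0682, 0.338 and 0.141) and Ikzf4 -1.21, -1.72, -1.12 and -1.60 (adjusted p = 0.153, 0.02, 0.171 and 0.0489). Without replicate 2 the IL-4 difference of Ikzf3 was -0.58 and not called, and the count of all genes called under IL-4, 283, was 106 without replicate 1 and 129 without replicate 3. Ikzf1 was higher in KO with TGF-β by 0.34 (fold 1.27, adjusted p = 0.000109) and was not called.

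Over all treatments at once, which holds under either reading of the columns, Ikzf4 separated the genotypes fully. Its 12 KO libraries held 1.31 to 2.25 RPKM (median 1.78) and its 12 WT libraries 2.71 to 13 (median 6.97), with no overlap. No other of the 5 genes did so, beside 1.61% of all genes with every KO library below every WT library and 2.05% with every KO library above. Foxp3 held 0.542 to 4.76 in KO (median 1.47) and 1.85 to 73.4 in WT (median 18.8), and Ikzf3 held 5.49 to 12.1 in KO (median 7.58) and 8.69 to 27.5 in WT (median 14.9), both with overlap.

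The difference between the genotypes in their response was tested as an interaction of genotype and treatment, the KO effect minus the WT effect. For TGF-β 3 of the 5 genes were called, all 3 negative, beside 4.23% of all genes: Foxp3 at -2.19 (95% interval -2.46 to -1.91, adjusted p = 1.68e-10), Ikzf4 at -1.15 (adjusted p = 6.48e-06) and Ikzf3 at -0.65 (adjusted p = 2.29e-05). For both cytokines the same 3 were called beside 5.17% of all genes, at -2.25 (adjusted p = 1.45e-10), -1.43 (adjusted p = 3.77e-07) and -0.70 (adjusted p = 9.34e-06). Without replicate 3 the Ikzf3 values were -0.65 (adjusted p = 0.0106) and -0.63 (adjusted p = 0.0116), and neither was called. The counts of all genes called, 411 and 503, were 258 for TGF-β and 285 for both cytokines without replicate 1, and 268 for both cytokines without replicate 3. For IL-4 limma called 0 of the 5 genes (1 of the 5 at an unadjusted p under 0.05), beside 0.113% of all genes (11, and 1 to 3 without a replicate), with Foxp3 at 0.60 (adjusted p = 0.0519), Ikzf3 at -0.08 (adjusted p = 0.877) and Ikzf4 at 0.00 (adjusted p = 0.998). Foxp3 averaged 0.611 to 4.21 RPKM in the KO groups, and adding 1 shrinks effects most at low levels. The size of its interactions therefore depends on the 1 that was added. With 0.1 in its place the calls for Foxp3 were the same.

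Ikzf2 could be fitted only without the filter, among 18130 genes. It was above control in WT with both by log2 0.25 (adjusted p = 0.00530) and lower in KO than WT by -0.32 with TGF-β (adjusted p = 0.000612) and by -0.47 with both cytokines (adjusted p = 9.36e-06). None of these reached a fold of 1.5 on log2(RPKM + 1). With 0.1 in place of 1 added to the RPKM the KO differences were -0.96 (adjusted p = 0.00305) and -1.44 (adjusted p = 5.01e-05), and both were called, while the difference of WT with both from control was 0.64 with a weaker adjusted p of 0.0417 and was not.

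A list of 26 genes known from Treg cells, many of them targets or companions of Foxp3, moved in both directions with TGF-β. Like the other lists, it was chosen with earlier results of these data known. In WT TGF-β against control 8 of the 20 tested genes were called higher and 3 lower (Tnfrsf18, Tnfrsf9 and Ebi3, named after their values were seen), 55.0% beside 5.40% of all genes, with a median log2 change of 0.44 beside 0.01. The largest rises were in Nt5e (CD73, log2 3.28), which makes adenosine, the chemokine receptor gene Ccr8 (2.75), the cytokine signaling inhibitor Socs2 (2.61) and the actin capping protein gene Capg (2.18). Ccr8 averaged 54.2 RPKM in WT controls and 369 in WT with TGF-β, Nt5e 1.14 and 19.7, Socs2 11.8 and 77.3, and Capg 207 and 940. With both cytokines 9 were called higher and 1 lower (Tnfrsf9, named after its value was seen; median 0.48), 50.0% beside 8.46%, and Itgae, which encodes the integrin CD103, rose by 2.86. With IL-4 3 were called higher (Tigit, Ccr4 and Ccr8) and 2 lower, 1 of them Socs2 (log2 -0.68, but -0.57 and not called without replicate 1, when 3 of the list were called in all), 25% beside 1.31%. In KO TGF-β the only gene of the list called was Ccr8, at 15 RPKM against 6.97 in control (5.0% of the list beside 0.0617% of all genes). In KO against WT 9 were lower in control (45.0% beside 2.64% of all genes), 11 lower and 1 higher with TGF-β (60.0% beside 9.0%, median log2 -0.85 beside 0.01), 6 lower with IL-4 (30.0% beside 2.91%) and 12 lower with both (60.0% beside 9.16%, median -1.01).

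**Figure D4:**
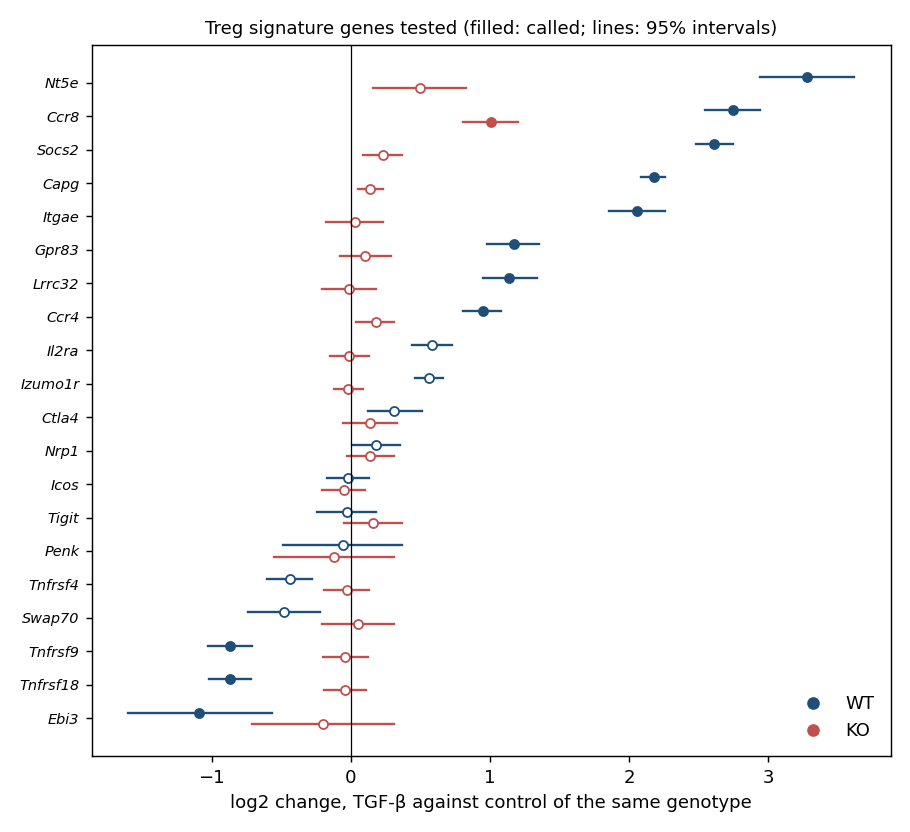
Log2 change in TGF-β against control, with 95% intervals, for the 20 tested genes of the Treg list, in WT and in KO. In WT 8 genes were called higher and 3 lower, and in KO 1 (Ccr8).

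Factors known to act on the Foxp3 gene formed a list of 26, of which 24 were tested. In WT TGF-β against control 5 were called higher (Smad3, Nfatc2, Stat5b, Runx1 and Foxo1) and 3 lower (Nr4a1, Nr4a2 and Satb1), 33.3% beside 5.40% of all genes, with a median log2 change of 0.09. Satb1, a chromatin organizer, fell by 1.19 and averaged 13.5 RPKM in WT control, 5.31 with TGF-β, 26.4 with IL-4 and 11.3 with both. Foxo1 and Runx1, whose proteins bind Foxp3's regulatory DNA, rose by 0.82 and 0.79, and the nuclear receptor gene Nr4a2 fell by 0.95. Smad3, Nfatc2 and Nr4a1 are named after their values were seen. With both cytokines 5 were higher and 1 lower (25% beside 8.46%, median 0.16), led by Runx1 (1.13), Stat5a (1.12) and Stat5b (1.08), the STAT genes of IL-2 signaling. In KO TGF-β limma called 0 of the 24 (1 at an unadjusted p under 0.05), beside 0.0617% of all genes, while IL-4 in KO raised 3, Stat5a, Stat5b and Satb1 (12.5% beside 2.65%). In KO against WT 5 were called lower in control (20.8% beside 2.64%) and 1 lower with IL-4 (4.17% beside 2.91%). With TGF-β 3 were called higher and 9 lower (50.0% beside 9.0%, median log2 0.00). With both cytokines 1 was called higher and 8 lower (37.5% beside 9.16%, median -0.16). The interaction of genotype and TGF-β was called for 6 of the 24 (25% beside 4.23%), and for 3 without replicate 1 or without replicate 3.

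Known corepressor partners of the family formed another list. Of 18 corepressor genes, 17 were tested, and limma called 0 in WT TGF-β against control (3 at an unadjusted p under 0.05), beside 5.40% of all genes, and 0 in WT IL-4 (1 at an unadjusted p under 0.05), beside 1.31%. Chd3, which encodes a NuRD remodeler, was the only one called with both cytokines (log2 0.69), from 3.89 to 6.86 RPKM, which is 5.88% of the list beside 8.46% of all genes, and 2 were called without replicate 1. With both against IL-4 Chd3 and Mta3 were called higher (11.8% beside 8.54%), and 1 to 3 of the list were called when a replicate was left out. In KO against WT under TGF-β Chd3 and Mta3, another NuRD subunit gene, were lower by log2 -0.68 and -0.65 (11.8% beside 9.0%), though Chd3 was not called without replicate 3 (-0.57), and under both cytokines Chd3, Mta3 and Gatad2b were called lower (17.6% beside 9.16%; Gatad2b is named after its value was seen). Of the other forkhead P genes, Foxp1 averaged 39.9, 48.7, 32.4 and 49.0 RPKM in WT control, TGF-β, IL-4 and both (named after its values were seen). Of Foxp1 and Foxp4, limma called 0 in WT TGF-β against control (1 at an unadjusted p under 0.05), beside 5.40% of all genes, and Foxp1 was called for the interaction of genotype and both cytokines (log2 -0.85, adjusted p = 1.54e-08), 1 of 2 beside 5.17%.

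Among the genes whose levels ran most like Foxp3 over the 24 libraries were Socs2 (Pearson r of log2(RPKM + 1) 0.989), Igfbp4 (0.983), Ccr6 (0.981) and Adam19 (0.981), chosen among 9721 genes for their likeness. Within the 12 KO libraries the same correlations were 0.847, 0.863, 0.791 and 0.868. Nearest to Ikzf4 were Mical1 (0.990), Bin1 (0.990) and Tnfrsf1b (0.986), nearest to Ikzf3 were Prnp (0.989), Spsb1 (0.977) and Cpne3 (0.971), nearest to Ikzf1 were Ms4a6b (0.924), Phf11a (0.924) and Phf11b (0.916), and for Ikzf5 the best, Znrf3, reached 0.713. Prnp, the prion protein gene, followed Ikzf3 within both genotypes (0.994 in WT and 0.970 in KO). For Mical1, Bin1 and Tnfrsf1b the correlation with Ikzf4 was 0.989, 0.987 and 0.986 within WT, but 0.747, 0.651 and 0.589 within KO. Among the members, Foxp3 and Ikzf4 had an r of 0.95 over all libraries and 0.70 within KO, and Foxp3 and Ikzf3 had 0.64 over all, 0.51 within WT and -0.47 within KO. Libraries of a group share their treatment, and these values are descriptions.

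The genes on either side of a member were followed as well, by group means and without a test. Grb7, 9529 bp from Ikzf3, averaged 0.750 RPKM in WT control, 3.99 with TGF-β, 0.731 with IL-4 and 5.26 with both, and 0.469 to 0.810 in KO. On the other side of Ikzf3, Zpbp2 stayed between 0.150 and 0.623. Suox, 23896 bp from Ikzf4, averaged 5.83, 9.32, 5.27 and 13.8 in the WT groups and 4.12 to 4.59 in KO, the same order of WT groups as for Ikzf4, and the ribosomal protein gene Rps26 on the other side of Ikzf4 averaged 3184 to 4061.

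Open chromatin was mapped by DNase-seq in control cells and cells with both cytokines, of each genotype, from 1 library each, so that no test was possible. The lists held 44298 DHSs in WT control, 33665 in KO control, 33880 in WT with both and 27145 in KO with both. At Foxp3 no list had a DHS over the gene or its start, nor at the promoters of 2 RefSeq entries, at the same start and 807 bp inside it, and this held in WT with both, where Foxp3 RNA averaged 33.7 RPKM. Within 10 kb before it, 1 DHS was in all 4 lists (chrX:7151265-7152084, with summits at -5315 to -5235 bp from the start), with a fold enrichment over background of 7.19 in WT control, 6.55 in KO control, 7.92 in WT with both and 5.84 in KO with both. A farther one (chrX:7147869-7148269) was listed in WT control (2.77) and WT with both (4.10) and in neither KO list. Both lie within Ppp1r3f, the nearer also within the noncoding gene 4930524L23Rik, and their letters are printed above. In WT control the farther DHS ranked at 99.5% of the list from the top, near the calling limit.

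At Ikzf4 the strongest DHS lay in an intron (in a region at chr10:128073628-128074551, its summit window printed above), with a fold of 12.4 in WT control, 7.78 in KO control, 10.0 in WT with both and 7.16 in KO with both. In WT with both the region also held a weaker DHS over an exon (3.30). The DHS at its start had 4.37, 3.17, 6.05 and 4.04 in the same order. The intronic DHS was thus strong in WT control cells, where Ikzf4 RNA averaged 3.74 RPKM, and in KO cells, where it was lower still: it ranked within the strongest 4.72%, 13.6%, 9.57% and 18.8% of the lists. Over the lists as wholes the median fold was 5.63, 4.69, 5.25 and 4.87, lower in both KO lists than in the WT lists. Ikzf3 had 12, 11, 11 and 8 DHSs in the same order. Its intronic DHS at chr11:98358664-98359104, printed above, had 7.88, 4.07, 7.28 and 4.26, and a DHS over an exon at chr11:98374263-98374591 (7.57, 3.67 and 5.14) and an intronic one at chr11:98388169-98388883 (5.94, 3.70 and 5.04) were in every list but KO with both, as was the DHS at its start.

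Over all 6 genes and the 10 kb before each, 35 DHSs were listed in WT control, 27 in KO control, 28 in WT with both and 19 in KO with both, which is 0.0790%, 0.0802%, 0.0826% and 0.0700% of the lists, and the counts roughly followed list length. Merged across lists they made 39 regions, of which 15 were in all 4 lists (38.5%, beside 43.2% of all 50176 merged regions), 3 in both WT lists and no KO list (7.69% beside 5.30%; 1 each at Foxp3, Ikzf1 and Ikzf3), 1 in KO only (2.56% beside 5.58%) and 10 in 1 list (25.6% beside 27.8%). With each list cut to its top 27145 by -log10 p the counts were 23, 18, 25 and 19 in the order above, and cut by fold enrichment, an alternative chosen after seeing the data, they were 17, 16, 19 and 19. Ikzf5, the flattest in RNA, had 1 DHS at its start in all 4 lists, with folds of 13.4, 11.3, 13.1 and 9.87. Ikzf1 had 14, 9, 8 and 6 DHSs and Ikzf2, hardly transcribed, still had 4, 3, 3 and 1.

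**Figure D5:**
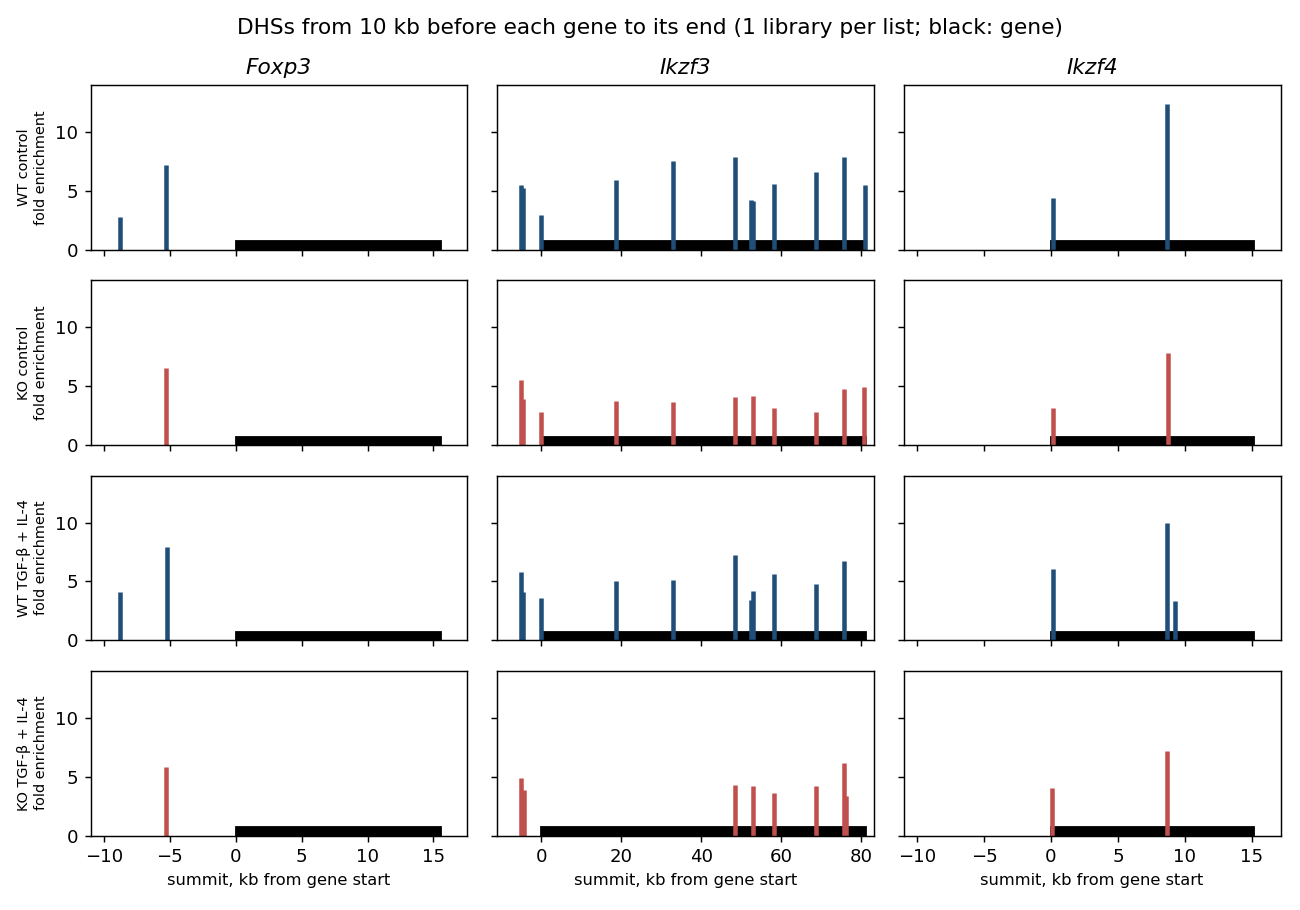
Fold enrichment of each DHS at Foxp3, Ikzf3 and Ikzf4 against the distance of its summit from the gene's start (kb), in the 4 DHS lists. Foxp3 had DHSs only before its start, and the strongest at Ikzf4 (12.4 in WT control) lay inside the gene.

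Markers of other cells were followed beside these results, and some shifted with treatment or genotype. The 2 CD8 genes summed to 26.3, 24.8 and 26.9 RPKM in WT controls and 17.3, 16.6 and 16.6 in WT with TGF-β (Cd8b1 the most abundant). The 5 NK cell genes summed to 8.0, 6.97 and 9.13 in WT control, 1.93, 1.56 and 1.79 in WT with TGF-β and 6.03, 5.94 and 6.72 in KO TGF-β (Eomes the most abundant, mean 2.84). The 6 myeloid genes, led by Lyz2, summed to 5.81, 7.28 and 4.92 in WT control, 20.4, 7.28 and 13.2 in WT with TGF-β and 18.4, 11.5 and 8.57 in WT with both, and the 6 B cell genes, led by Cd79b, to 22.7, 26.5 and 16.4, to 12.5, 13.8 and 14.4 and to 37.1, 17.1 and 26.9. No gene of these lists was at 0 in all libraries. The CD4 list stood at 1606, 1566 and 1650 in WT controls, 1531, 1534 and 1527 with TGF-β, 1400, 1388 and 1361 with IL-4 and 1715, 1692 and 1746 with both, and in KO at up to 1731 in control, 1607, 1621 and 1682 with TGF-β, 1303, 1399 and 1412 with IL-4, and 1320, 1442 and 1376 with both. Of this list Cd28 was called lower in WT TGF-β against control (log2 -0.76) and higher in KO than WT under TGF-β (0.96). In KO controls the sums were 16.7, 14.8 and 15 for CD8, 6.21, 6.85 and 7.20 for NK cell, 1.83, 1.32 and 2.77 for myeloid and 10.0, 9.84 and 11.4 for B cell genes. With IL-4 the CD8 sums were 36.3, 35.2 and 29.9 in WT and 26.3, 27.2 and 26.3 in KO, the NK cell sums 7.98, 10.9 and 7.35 and 7.10, 8.90 and 8.08, the myeloid sums 5.43, 3.58 and 3.62 and 5.31, 1.85 and 5.09, and the B cell sums 26.7, 14.4 and 13.4 and 12.8, 14.5 and 13.6. In KO TGF-β the CD8 genes summed to 15, 14.3 and 15.2, the myeloid genes to 2.08, 4.95 and 11.7 and the B cell genes to 11.6, 9.20 and 9.20. In KO with both the sums were 26.3, 28.3 and 27.1 for CD8 (25.3, 26.7 and 26.6 in WT), 8.20, 10.2 and 7.42 for NK cell (3.88, 4.86 and 4.38 in WT), 5.42, 4.99 and 3.31 for myeloid and 16.2, 27.8 and 27.3 for B cell genes. In WT TGF-β against control Eomes (log2 -1.74), Cd8b1 (-0.75) and Ncr1 (-0.67) were called lower. In WT with both against control Cd79b was called higher (1.04), and Eomes (-1.25) and Cd28 (-0.62) lower. Of these calls, those of Ncr1, Cd79b and Cd28 were not kept in every fit with a replicate left out. In WT IL-4 against control Ncr1 was called higher (log2 0.72) and Eomes lower (-0.72). Leaving out a replicate moved these IL-4 values from 0.60 to 0.83 and from -1.01 to -0.47. Ncr1 was then not called without replicate 1 or 2, and Eomes not without 1 or 3. In KO IL-4 against control Cd8b1, Cd79b and Ncr1 were called higher and Cd5 and Cd28 lower. The same genes were called in the same directions in KO with both against control (Cd5 is named after its values were seen). In KO against WT Cd8a was called lower under all 4 treatments, Blnk lower in control, Eomes higher with TGF-β and with both, and Ncr1 higher with both (all but Eomes are named after their values were seen). Apart from those under TGF-β, these last calls and those in KO IL-4 and in KO with both against control were not run with a replicate left out. The part of these shifts in the levels of Foxp3, Ikzf3 and Ikzf4, between treatments or between genotypes, was not tested.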

How the data were processed

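The authors aligned Smart-seq2 RNA-seq and DNase-seq reads to mm9, and the deposited RNA table holds RPKM, which the authors made with edgeR. The deposited DHS lists are MACS peaks of 1 library each, after the authors dropped duplicates and poorly mapped reads. Their values are fold enrichment, a ratio over background, and -log10 p and q values, as the authors deposited them. The 24 value columns were read by position and the conflict with their headings was checked against the authors' read counts for 8 libraries. No 2 columns were identical (highest correlation 0.9974). Relative depth, from the smallest steps between RPKM values, ran from 0.600 to 1.25 (median 0.882, 2.08-fold), and the reads behind a level were recovered from whole-read steps (tolerance 0.02), except for Ikzf1.

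RPKM + 1 was put on the log2 scale, genes with a mean of at least 1 RPKM were kept (9726), and limma 3.58.1 in R 4.3.3 was fitted over 8 groups, with a trend in its moderation, for 16 comparisons. P-values were Benjamini-Hochberg adjusted over all genes tested. A call needed an adjusted p under 0.01 and a fold of at least 1.5. The fit was tested on simulated data. Replicate numbers were read from the library names, within a genotype. Residual correlations of libraries with the same number had medians of 0.06 (WT) and 0.19 (KO), against -0.03 and -0.12 for other numbers, and a fit with replicate as a block was an alternative.

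The members and gene lists were chosen with earlier results of these data known. Genes named were the 6 members and the genes that check the labels, up to 4 called genes per list with the largest change in each WT treatment against control and up to 3 in KO against WT under TGF-β, the 5 genes of highest correlation with Foxp3 and the 3 with each other tested member, and the genes on either side of a member. DHSs were assigned to a gene when they overlapped it or the 10 kb before its start, and lists were compared by an overlap of at least 1 base. Promoter entries from RefSeq matched Foxp3, Ikzf1 and Ikzf5. Python 3.11.15 with numpy 2.4.6, pandas 2.3.3 and matplotlib 3.10.9 was used for the rest. Alternatives were a pseudocount of 0.1, no filter, a filter at 5 RPKM, only the compared groups in the fit, median-ratio scaling, moderation without a trend, an adjusted p of 0.05, the replicate block, each replicate left out, the columns as headed and only the 8 libraries with read counts; for DHSs, a -log10 q of at least 5, 2 kb in place of 10 kb and the same number of DHSs in every list, by -log10 p and, chosen after seeing the data, by fold enrichment.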

Additional observations from a re-analysis of the deposited data

Results flagged for a closer look

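The effect of a treatment in KO differed from its effect in WT, by the limma interaction test, for the genes given here. Each value is the KO effect minus the WT effect on the log2 scale, and no cause was tested.

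For TGF-β against control the differences were -2.19 for Foxp3, -0.65 for Ikzf3 and -1.15 for Ikzf4. Among genes that check the labels they were -1.84 for Tgfbr1, -0.81 for Skil, -0.98 for Ski, -1.05 for Il9 and 0.83 for Gata3. Among Treg genes they were -2.78 for Nt5e, -1.74 for Ccr8, -2.38 for Socs2 and -2.03 for Capg. Among factors that act on Foxp3 they were 1.20 for Satb1, 0.94 for Nr4a2, -0.85 for Foxo1 and -0.70 for Runx1.

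For IL-4 against control they were 1.06 for Gata3, 0.80 for Socs1, 0.85 for Ccr8 and 0.82 for Ccr4. Ccr8 and Ccr4 were the only Treg genes of their list called for this difference (10% of the list beside 0.113% of all genes), and 0 or 1 of the list was called when a replicate was left out.

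For TGF-β + IL-4 against control they were -2.25 for Foxp3, -0.70 for Ikzf3 and -1.43 for Ikzf4. Among genes that check the labels they were -1.83 for Tgfbr1, -0.86 for Skil, -1.18 for Ski, 2.20 for Gata3 and 0.81 for Socs1. Among the other lists they were -2.70 for Nt5e, -2.65 for Itgae, -2.38 for Capg, -1.03 for Runx1 and -0.72 for Chd3. Chd3 was the only corepressor gene called for this difference (5.88% of the list beside 5.17% of all genes), and the count ran from 0 to 1 when a replicate was left out.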

How the results depend on the processing

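Of the 33 calls for the 5 tested members, 33 kept direction and threshold under a pseudocount of 0.1, no filter, median-ratio scaling, moderation without a trend and an adjusted p of 0.05. At a mean of at least 5 RPKM 24 of 24 did, with only the compared groups 32 of 33, with the replicate block 22 of 22, and with only the 8 libraries that have read counts 13 of 13. Leaving out replicates 1, 2 and 3 kept 33, 32 and 30. As headed 0 of 33 passed and none was called the other way. All KO libraries rest on position alone. Ikzf2 (24 to 193 reads) and Foxp3 in KO are limited by depth.

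With columns as headed limma called 0 genes in the 12 comparisons within a genotype and interactions (85 to 1096 at an unadjusted p under 0.05), and 39, 134, 33 and 59 in KO against WT in control, with TGF-β, with IL-4 and with both cytokines. Foxp3 was then 1.27 (WT TGF-β), -0.29 (WT IL-4), 0.78 (WT with both), -0.49 (both against TGF-β), 1.07 (both against IL-4), 0.05 (KO TGF-β), -0.35 (KO IL-4), -1.89, -3.11, -1.95 and -2.72 (KO against WT in the order above), and -1.22 and -0.83 (interactions of genotype with TGF-β and with both). Ikzf3 was 0.30, 0.32, 0.52, 0.22 and 0.21 in the same 5 WT comparisons, 0.26 in KO with both, -0.96, -0.73 and -1.03 in KO against WT under TGF-β, IL-4 and both, and -0.19 and -0.27 for the interactions. Ikzf4 was 0.55 (WT TGF-β), 0.45 (WT both), 0.35 (both against IL-4), -1.21, -1.72, -1.12 and -1.60 in KO against WT, and -0.51 and -0.39 for the interactions. Values not called in either reading changed sign for Foxp3 in the interaction of both cytokines in WT (-0.21), in KO with both (-0.05) and for genotype by IL-4 (-0.06), for Ikzf3 in the first and last of these (-0.10 and 0.03), and for Ikzf4 in WT IL-4 (0.10), both against TGF-β (-0.10), the interaction of both cytokines in WT (-0.20) and KO IL-4 (0.19). Ikzf1 changed sign in WT TGF-β (0.03), WT IL-4 (0.09), both against TGF-β (-0.05), both against IL-4 (-0.11), the interaction in WT (-0.14), KO TGF-β (0.02), KO IL-4 (0.10) and genotype by both (0.01), and Ikzf5 in WT IL-4 (0.11), both against TGF-β (0.10), KO TGF-β (0.10) and genotype by TGF-β (0.09). Eomes in WT IL-4 turned from -0.72 to 0.40. By construction this reading assigns 16 columns to other groups.

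At a mean of at least 5 RPKM fewer genes were tested, and the counts were 311 (WT TGF-β), 75 (WT IL-4), 503 (WT both), 143 (both against TGF-β), 3, 168 and 170 (KO TGF-β, IL-4 and both), 168, 536, 177 and 572 (KO against WT under control, TGF-β, IL-4 and both), and 265 and 327 (genotype by TGF-β and by both). With only the compared groups the counts were 0 for KO TGF-β (limma, 266 at an unadjusted p under 0.05), 181 for KO with both and 4 for the interaction of genotype and IL-4, and Foxp3 in KO TGF-β kept its 1.09 with adjusted p = 0.0101. At an adjusted p under 0.05, a looser limit, the counts were 184 for the interaction of both cytokines in WT and 25 for that of genotype and IL-4. With the replicate block, which pairs libraries by number, the latter was 18. With only the 8 libraries that have read counts, both against TGF-β gave 336. With a pseudocount of 0.1 Ikzf3 in KO IL-4 was 0.62 and called, and Ikzf4 for genotype by IL-4 was -0.04, not called. The causes of these other changes were not tested.

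Leaving out each replicate in turn gave 144 to 311 genes for both against TGF-β, 15 to 107 for the interaction of both cytokines in WT, 2 to 2 for KO TGF-β, 106 to 299 for KO against WT under IL-4, and 258 to 344, 1 to 3 and 268 to 637 for genotype by TGF-β, by IL-4 and by both. Foxp3 in KO IL-4 ran from -0.62 to -0.55. Ikzf3 ran from -0.61 to -0.58 in KO against WT under IL-4, and from -0.69 to -0.62 and -0.74 to -0.63 for the interactions with TGF-β and with both. Without being called in any, Ikzf3 ran from 0.00 to 0.08 in KO TGF-β, and Ikzf4 from -0.13 to 0.13 in KO with both and from -0.06 to 0.09 for genotype by IL-4. Fewer samples were fitted in each.

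With the top 27145 DHSs of each list by -log10 p the WT control total was 23. By fold enrichment, an alternative chosen after seeing the data, the totals were 17 in WT control and 16 in KO control. With 2 kb before the start in place of 10, no list had a DHS at Foxp3. The other totals stayed within 1.5 times.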
